A study of Mus musculus with 2 samples.

Results

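The hemoglobin and erythroid heme genes examined here are the adult alpha globin genes *Hba-a1* and *Hba-a2*, the adult beta globin genes *Hbb-bs* and *Hbb-bt*, the heme synthesis genes *Alas1* and *Alas2*, and the red cell anion exchanger gene *Slc4a1*. They were chosen by gene symbol from the deposited transcript table, and estimated read counts were summed over the transcripts of each symbol. All 7 symbols were found, as 7 of 45777 genes in the table, and all 7 held at least 10 estimated counts in at least 1 library. The data are RNA sequencing of liver from C57BL/6 mice fed a high-fat diet (HFD). The mice were 7 weeks old at the start of the diet, stayed on it for 18 weeks, and received an adeno-associated virus (AAV) by retro-orbital injection at week 13 of the diet. The control library came from liver given AAV-GFP, which encodes green fluorescent protein, and the other library from liver given AAV-*Wee1-AS*, which encodes the long noncoding RNA *Wee1-AS*. Both groups therefore carried the diet and a virus. The AAV-*Wee1-AS* vector had serotype AAV9 and a CMV promoter, which is not restricted to hepatocytes. The design text speaks of 4 liver samples, of which 2 are analysed here, 1 per group, and the number of animals behind each library is not given in the sources used here. With 1 library per group no difference had a replicate check, so no p-value is given. Each 95% interval covers counting error only. It is an exact Clopper-Pearson interval, except for the change of a ratio between genes, where it is a symmetric normal approximation on the log scale. Both forms treat the estimated counts as independent reads, which they are not, so the limits are approximate.

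Hemoglobin, the oxygen carrier of red cells, is built of alpha and beta globin chains, each of which holds a heme group. Heme synthesis starts in mitochondria with 5-aminolevulinate synthase, which has a housekeeping form encoded by *Alas1*, prominent in liver where heme is needed for cytochrome P450 enzymes, and an erythroid form encoded by *Alas2*. *Slc4a1* encodes band 3, which exchanges chloride and bicarbonate and anchors the membrane of red cells to their skeleton. Globin, *Alas2* and *Slc4a1* transcripts are typical of maturing red cells, whereas *Alas1* is not an erythroid gene.

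The 7 genes lie in 5 places of the mm10 genome. *Hba-a1* (gene ID 15122, chr11:32283672-32284486) and *Hba-a2* (gene ID 110257, chr11:32296492-32297310) are neighbours in the alpha globin cluster. *Hbb-bs* (gene ID 100503605, chr7:103826523-103827928) and *Hbb-bt* (gene ID 101488143, chr7:103812524-103813923) are neighbours in the beta globin cluster. *Alas1* (gene ID 11655) spans chr9:106233455-106247954, *Alas2* (gene ID 11656) spans chrX:150547417-150570622 and *Slc4a1* (gene ID 20533) spans chr11:102348820-102365281. The globin transcripts were the shortest, at 559 bases for *Hba-a1*, 563 for *Hba-a2*, 639 for *Hbb-bs* and 630 for *Hbb-bt*. The *Alas2* transcripts had 1934 to 1983 bases, the *Alas1* transcripts 2702 and 3089 bases, and the *Slc4a1* transcript 4550 bases. Because lengths differ by this much, levels are compared between genes only as TPM, a transcript share scaled by length.

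The paired globin genes are nearly the same in sequence, which bears on how their reads could be divided. The coding sequences of *Hba-a1* and *Hba-a2* differed at 1 of 429 bases (C381T, *Hba-a1* base first, counted from the first base of the start codon), and those of *Hbb-bs* and *Hbb-bt* at 1 of 444 bases (C417T, *Hbb-bs* base first). The 60 coding bases around each difference are shown from the GENCODE vM21 transcripts, with the differing base in capitals, on the plus strand for the alpha genes (chr11:32284314-32284373 and chr11:32297131-32297190) and the minus strand for the beta genes (chr7:103826665-103826724 and chr7:103812656-103812715).
Hba-a1 exon: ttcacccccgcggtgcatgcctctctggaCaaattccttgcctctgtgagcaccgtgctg
Hba-a2 exon: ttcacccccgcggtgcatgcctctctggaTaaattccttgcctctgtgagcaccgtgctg
Hbb-bs exon: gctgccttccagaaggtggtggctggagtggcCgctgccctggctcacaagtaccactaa
Hbb-bt exon: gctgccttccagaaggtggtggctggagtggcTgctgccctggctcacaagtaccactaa
Of the 100-base windows along the GENCODE transcripts (699 bases for *Hba-a1*, 554 for *Hba-a2*, 628 for *Hbb-bs* and 703 for *Hbb-bt*, not the deposited lengths), each as long as 1 read, 56.5% of those of *Hba-a1* were also found in *Hba-a2*, and 74.5% of those of *Hba-a2* in *Hba-a1*. The shares were 62.6% of *Hbb-bs* windows found in *Hbb-bt* and 54.8% of *Hbb-bt* windows found in *Hbb-bs*. No window was shared between *Hba-a1* and *Hbb-bs*, nor between *Alas1* and *Alas2*. The value of a single globin gene is therefore uncertain where its pair could take the same reads, and the sum over each pair is given as the main value.

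The globin promoters are printed because the globin genes had closely similar ratios between the libraries. Each line gives the 100 bases before the start site, read 5′ to 3′ in the direction of transcription, from the RefSeq promoter table of GRCm38.p6, in which 6 of the 7 symbols matched. Capitals mark the letters GATAA (a core bound by GATA factors), CACCC (bound by KLF factors), CCAAT (a box bound by NF-Y) and the TATA box form ATATAA, each searched on both strands, and CCAAT can touch its own reverse complement. The windows are chr11:32283572-32283671 for *Hba-a1* and chr11:32296392-32296491 for *Hba-a2* on the plus strand, chr7:103827929-103828028 for *Hbb-bs* and chr7:103813924-103814023 for *Hbb-bt* on the minus strand, and chrX:150547317-150547416 for *Alas2* on the plus strand.
Hba-a1 promoter: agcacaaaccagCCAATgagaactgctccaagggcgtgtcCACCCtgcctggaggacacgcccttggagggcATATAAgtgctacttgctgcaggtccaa
Hba-a2 promoter: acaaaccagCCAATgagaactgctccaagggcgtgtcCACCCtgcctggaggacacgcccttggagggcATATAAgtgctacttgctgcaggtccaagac
Hbb-bs promoter: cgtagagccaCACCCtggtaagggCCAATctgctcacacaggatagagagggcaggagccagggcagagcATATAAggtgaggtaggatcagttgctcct
Hbb-bt promoter: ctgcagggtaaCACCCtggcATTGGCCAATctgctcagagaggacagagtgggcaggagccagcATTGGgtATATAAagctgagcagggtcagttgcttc
Alas2 promoter: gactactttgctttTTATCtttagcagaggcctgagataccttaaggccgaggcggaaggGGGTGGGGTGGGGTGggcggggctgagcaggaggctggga
Each of the 4 globin windows held a CCAAT box, a CACCC box and the ATATAA letters in the direction of transcription. The ATATAA letters began at positions -28, -31, -30 and -29 from the start of *Hba-a1*, *Hba-a2*, *Hbb-bs* and *Hbb-bt*. In *Hbb-bt*, ATTGG, the reverse complement of CCAAT, lay directly before the CCAAT box and again at -36 to -32. The *Alas2* window held GATAA on the opposite strand and CACCC on the opposite strand at 3 adjacent places. In the globin promoters GATAA lay farther out, beginning at -182 in *Hba-a1*, -185 in *Hba-a2*, -209 in *Hbb-bs* and -204 in *Hbb-bt*, and 22.6% of all promoters held it within 250 bases. Both 100-base windows of *Alas1*, which has 2 start sites in the table, held none of these letters. Among all 32817 promoters of the same length, 8.56% held GATAA, 27.2% CACCC, 18.9% CCAAT and 3.75% ATATAA. Over 250 bases, the *Hba-a1* and *Hba-a2* promoters were identical at 247 of 247 aligned bases, whereas *Hbb-bs* and *Hbb-bt* matched at 127 of 249 bases without gaps (51.0%). A match of letters is a description and not a site shown to be bound.

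The 2 libraries held 55466182 (AAV-GFP) and 48079335 (AAV-*Wee1-AS*) estimated counts, and 15857 genes passed the minimum of 10 counts. Ratios are AAV-*Wee1-AS* over AAV-GFP on the log2 scale after TMM scaling, with a prior count of 2. Over all genes tested the median log2 ratio was -0.0020, the middle 50% lay from -0.55 to 0.89, and 31% of genes were past 2-fold in either direction (22.5% above 2 and 8.43% below 0.5). Hepatocyte markers were at high levels in both libraries, with a summed 77716 TPM and 85991 TPM over 8 genes, of which *Alb*, encoding albumin, had 37459 TPM and 53289 TPM. No row was used to check the level of *Wee1-AS* or GFP, which were not analysed here.

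The globin genes were abundant liver transcripts in both libraries and were lower with AAV-*Wee1-AS*, by nearly the same ratio for alpha and beta chains. This likeness did not hold with trends over GC content and transcript length removed, where the log2 ratio was -0.065 for alpha globin and -0.56 for beta globin. *Hba-a1* had 16743 estimated counts with AAV-GFP and 7509 with AAV-*Wee1-AS*, or 909 TPM and 481 TPM. *Hba-a2* had 14484 and 6268 counts, or 781 TPM and 399 TPM. Each alpha gene was thus lower in the AAV-*Wee1-AS* library, 1.84-fold for *Hba-a1* and 1.91-fold for *Hba-a2*. The log2 ratio was -0.88 (95% interval -0.92 to -0.84) for *Hba-a1* and -0.93 (-0.97 to -0.89) for *Hba-a2*, and the intervals overlapped. Summed over the pair, alpha globin went from 31227 to 13777 counts, a log2 ratio of -0.90 (-0.93 to -0.87). In a bulk sample fewer cells of a type and less RNA per cell cannot be told apart.

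For the beta chains the picture was the same. *Hbb-bs*, the most abundant of the 7 genes in both libraries, had 20325 and 8855 counts, or 966 TPM and 496 TPM. *Hbb-bt* had 11177 and 5092 counts, or 539 TPM and 290 TPM, and was the least abundant of the globin genes in each library. The log2 ratio was -0.92 (-0.96 to -0.88) for *Hbb-bs*, 1.89-fold lower, and -0.86 (-0.90 to -0.81) for *Hbb-bt*, 1.81-fold lower. Summed over the pair, beta globin went from 31502 to 13947 counts, a log2 ratio of -0.90 (-0.93 to -0.87). All 4 globin genes together held 3195 TPM with AAV-GFP and 1666 TPM with AAV-*Wee1-AS*, which was 0.113% (0.112% to 0.114%) and 0.0577% (0.0570% to 0.0583%) of all estimated counts. Among all genes, ranked by TPM, *Hbb-bs* stood at place 156 with AAV-GFP and 242 with AAV-*Wee1-AS*, and *Hbb-bt* at 286 and 434. None of the 4 globin genes was past 2-fold, although under other scalings of the libraries, by totals and by the upper quartile, 2 and 4 of the 7 genes were below 0.5, beside 1547 and 1759 of all 15857 genes. Between 9.76% (*Hba-a2*) and 11.7% (*Hbb-bt*) of all genes had a lower ratio than a globin gene.

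**Figure D1:**
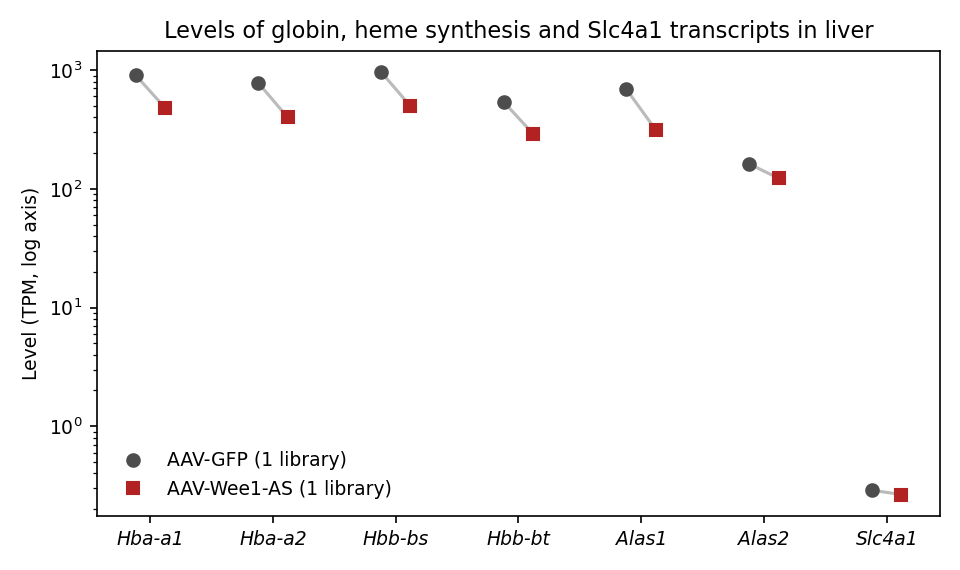
Levels of the 7 genes in TPM on a log axis, with 1 point for the AAV-GFP library (circle) and 1 for the AAV-Wee1-AS library (square), joined by a line for each gene and without error bars since there was 1 library per group. The 4 globin genes and Alas1 lay between 290 and 966 TPM, Alas2 at 162 and 123 TPM, and Slc4a1 at 0.289 and 0.266 TPM, and each gene was lower in the AAV-Wee1-AS library, Slc4a1 by less than its counting error.

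The balance between alpha and beta chains, which must match for hemoglobin to assemble, was alike in the libraries before removal of GC and length trends. On the TPM scale alpha globin was 1.12 times beta globin in each library, and the ratio of their counts changed by -0.01 on the log2 scale (-0.05 to 0.04). Within the alpha pair, *Hba-a1* was 1.16 times *Hba-a2* in TPM with AAV-GFP and 1.21 times with AAV-*Wee1-AS*, a change in the log2 ratio of their counts of 0.05 (-0.0065 to 0.11). Within the beta pair, *Hbb-bs* was 1.79 and 1.71 times *Hbb-bt* in TPM, a change of -0.06 (-0.12 to -0.0046). With the trends left in, each of these balances moved less than the levels of the genes. Within a pair, the balance also depends on how reads that both genes could take were divided, which was not tested.

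*Alas1*, the first and rate-limiting enzyme of heme synthesis in liver, was the 1 gene of the 7 past 2-fold, beside 31% of all genes past 2-fold either way and 8.43% below 0.5. It had 61181 estimated counts with AAV-GFP and 23535 with AAV-*Wee1-AS*. Its level was 687 TPM and 312 TPM, at place 205 and 392 among all genes. The log2 ratio was -1.10 (-1.12 to -1.08), or 2.14-fold lower, and 6.82% of all genes had a lower ratio. With GC and length trends removed it was at -0.71 (-0.74 to -0.69), no longer past 2-fold. *Alas2* had 10460 and 6751 counts, or 162 TPM and 123 TPM, a log2 ratio of -0.35 (-0.40 to -0.31), or 1.28-fold lower, a direction that turned to 0.20 (0.16 to 0.25) with GC and length trends removed. The housekeeping form was thus the more abundant of the pair in both libraries, at 4.25 times the *Alas2* level in TPM with AAV-GFP and 2.54 times with AAV-*Wee1-AS*. The ratio of *Alas1* to *Alas2* counts changed by -0.75 on the log2 scale (-0.80 to -0.70). The 4 globins were 19.7 times the *Alas2* level in TPM with AAV-GFP and 13.6 times with AAV-*Wee1-AS*, a change in the count ratio of -0.55 (-0.59 to -0.50). *Alas2* and globin transcripts, both typical of red cells, thus did not keep a constant ratio.

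At the level of single transcripts, *Alas2* was made of parts that moved in opposite directions. The table lists 3 *Alas2* transcripts. Variant 1, of 1979 bases, encodes the longer enzyme (1764 coding bases) and had 5394 counts with AAV-GFP and 5584 with AAV-*Wee1-AS*, a log2 ratio of 0.33 (0.27 to 0.38). Variant 2, of 1934 bases, encodes a shorter form (1719 coding bases) and had 3872 and 1069 counts, a log2 ratio of -1.58 (-1.68 to -1.48). Variant X1, a predicted RefSeq model of 1983 bases, had 1194 and 98 counts, a log2 ratio of -3.31 (-3.64 to -3.03). Variant 1 therefore made up 51.6% (50.6% to 52.5%) of *Alas2* counts with AAV-GFP and 82.7% (81.8% to 83.6%) with AAV-*Wee1-AS*. Variant 2 went from 37.0% to 15.8% and variant X1 from 11.4% to 1.45%. The stretch that separates variant 1 from variant 2 within the coding sequence is an exon part of 45 bases at chrX:150552959-150553003 on the plus strand, printed because it is the coding difference between these variants, and the deposited lengths of the variants differ by the same 45 bases.
Alas2 variant 1 coding segment lacking in variant 2: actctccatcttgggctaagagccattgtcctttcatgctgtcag
The GENCODE forms of variants 1 and 2 share most other bases, although variant 1 has 84 more at its start and 16 more at its end. The sequence of variant X1 was not compared. The split among the 3 transcripts is an estimate made by the authors' software, and how reads were divided was not tested. With the most abundant transcript alone in place of the sum, the direction of *Alas2* turned, from -0.35 to 0.33.

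**Figure D2:**
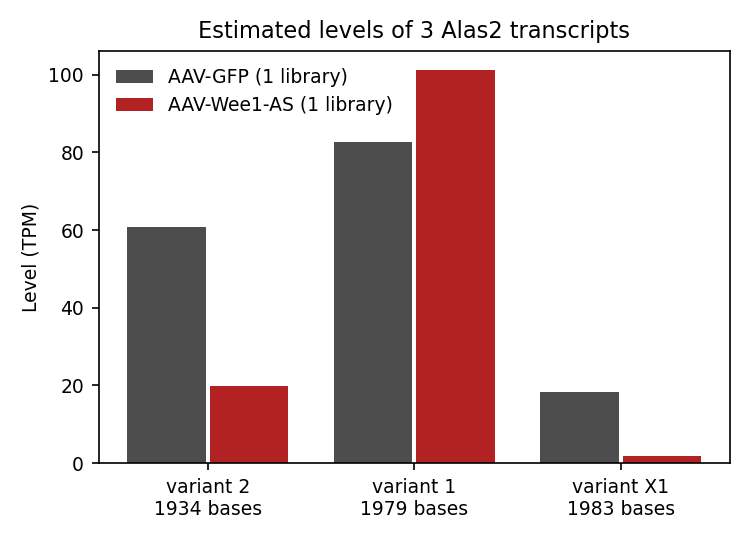
Levels in TPM of the 3 Alas2 transcripts in the AAV-GFP library (grey bars) and the AAV-Wee1-AS library (red bars), 1 library each and without error bars. Variant 1 was at 82.7 and 101 TPM, variant 2 at 60.8 and 19.8 TPM, and variant X1 at 18.3 and 1.76 TPM.

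*Alas2* translation is known to be held back by iron regulatory proteins, which bind an iron-responsive element in the 5′ untranslated region. The pattern CNNNNNCAGTG, searched on the transcript strand only, was found there once. It is printed with the match in capitals, at bases 84 to 113 of the GENCODE variant 1 transcript, on the plus strand of chromosome X from 150547458 to 150552150 with an intron inside, within an untranslated region of 126 bases.
Alas2 iron-responsive element: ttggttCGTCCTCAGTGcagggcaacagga
The same pattern was present in the first 100 bases of transcripts of 783 of 21828 protein-coding genes (3.59%). For *Alas1*, 2 transcripts are listed, which differ in the first exon and not in the coding sequence of 1929 bases. Variant 2, of 2702 bases, held 61122 and 23401 counts and thus nearly the whole gene, with a log2 ratio of -1.11 (-1.13 to -1.09). Variant 1, of 3089 bases, had 59 and 134 counts, a log2 ratio of 1.43 (1.01 to 1.93), and went from 0.0964% to 0.569% of *Alas1* counts. The *Alas1* difference was therefore carried by variant 2.

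*Slc4a1* was at a very low level in both libraries. It had 44 counts with AAV-GFP and 34 with AAV-*Wee1-AS*, or 0.289 TPM and 0.266 TPM. The log2 ratio was -0.09 (-0.78 to 0.58), an interval with room for either direction. At place 13872 and 14377 by TPM it stood far below the globin genes and *Alas2*.

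**Figure D3:**
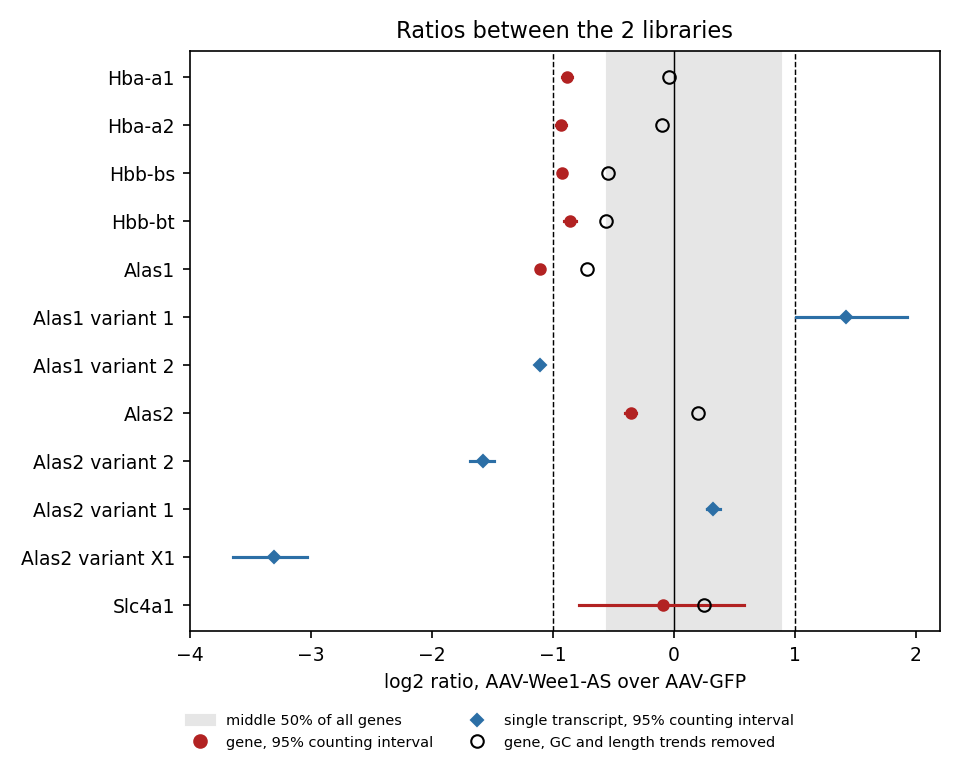
Log2 ratio of AAV-Wee1-AS over AAV-GFP for the 7 genes (red, from summed counts) and for single transcripts of Alas1 and Alas2 (blue), with 95% counting intervals as bars, and for the genes after removal of GC and length trends (open circles). The grey band is the middle 50% of all genes and the dashed lines mark 2-fold. The 4 globin genes lay from -0.93 to -0.86, whereas the Alas2 transcripts ranged from -3.31 to 0.33.

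The ratio between these libraries moved with base composition over all genes, and this bears on each gene of the group. The 5% of genes lowest in GC content, with a median GC of 38.5%, had a median log2 ratio of 1.43, and the 5% highest, with a median GC of 60.8%, had -0.69. The alpha globin genes are GC-rich, at 57.2% for *Hba-a1* and 56.9% for *Hba-a2*. The 1180 genes within 1 percentage point of the GC content of *Hba-a1* had a median log2 ratio of -0.62 (quartiles -0.89 and -0.36), so that *Hba-a1*, at -0.88, lay just inside their quartiles. The 1219 genes of like GC content to *Hba-a2* had a median of -0.61 (quartiles -0.88 and -0.34), and *Hba-a2*, at -0.93, lay below them. The beta globin genes are less GC-rich, at 51.3% for *Hbb-bs* and 50.8% for *Hbb-bt*. The 1574 genes of like GC content to *Hbb-bs* had a median of -0.17 (quartiles -0.52 and 0.30), and *Hbb-bs*, at -0.92, lay below them. *Alas1*, with a GC content of 53.5%, lay at -1.10 beside a median of -0.42 (quartiles -0.70 and -0.05) over 1663 genes. *Alas2*, with 53.3%, lay at -0.35 beside -0.40 over 1661 genes, and *Slc4a1*, with 55.1%, at -0.09 beside -0.52 over 1506 genes.

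With the trends over GC content and transcript length removed, the log2 ratio was -0.04 (-0.08 to 0.0025) for *Hba-a1* and -0.10 (-0.14 to -0.06) for *Hba-a2*, but -0.54 (-0.58 to -0.51) for *Hbb-bs* and -0.56 (-0.60 to -0.51) for *Hbb-bt*. The alpha and beta genes, alike before, were thus apart on this scale. *Alas1* remained the lowest of the 7 at -0.71 (-0.74 to -0.69). *Alas2* turned to 0.20 (0.16 to 0.25) and *Slc4a1* to 0.25 (-0.44 to 0.93). None of the 7 genes was past 2-fold on this scale, beside 8.12% of all genes below 0.5 and 7.83% above 2. The intervals on this scale are the earlier ones shifted, without any error of the fits. Which of the scales is closer to the levels in the tissue was not tested.

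**Figure D4:**
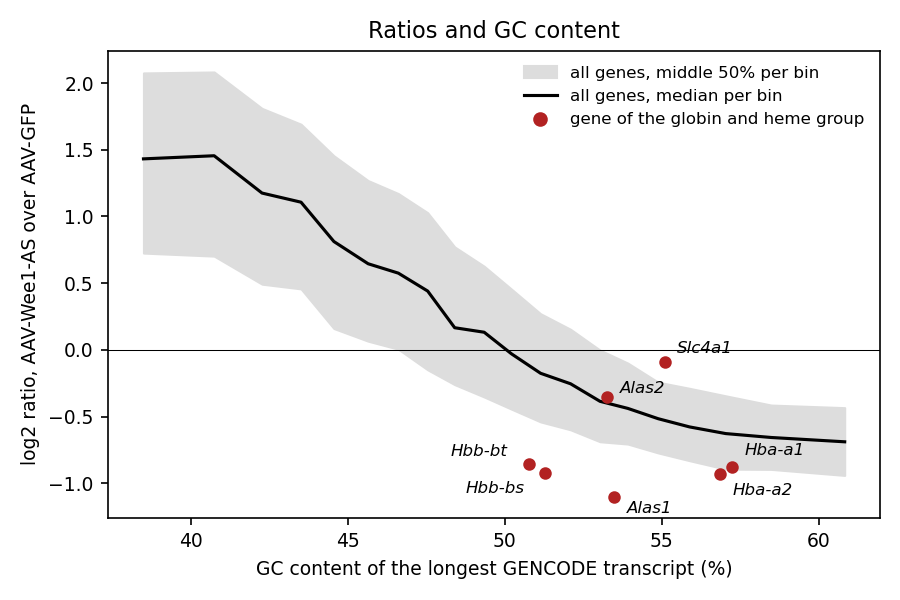
Log2 ratio of AAV-Wee1-AS over AAV-GFP against the GC content of the longest GENCODE transcript in percent. The line is the median and the band the middle 50% of all genes in 20 bins of equal size, and the points are the 7 genes. The median fell from 1.43 in the bin of lowest GC to -0.69 in that of highest GC. The beta globin genes, Alas1 and, by less, Hba-a2 lay below the band, whereas Hba-a1 lay inside it and Alas2 on the line. Slc4a1 lay above the band, with a wide counting interval of -0.78 to 0.58.

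Of the 9 enzymes of heme synthesis, 7 were lower and 2 higher with AAV-*Wee1-AS*, and *Alas1* alone was past 2-fold, beside 7942 lower of all 15857 genes and 8.43% below 0.5. The median log2 ratio was -0.43, beside -0.0020 over all genes, and 0.08 with GC and length trends removed, where 4 were lower and 5 higher and none was past 2-fold, beside 8.12% of all genes below 0.5 and 7.83% above 2. For genes named from here on, a log2 ratio that changed sign with these trends removed is followed by the value it turned to. *Alad*, which joins aminolevulinate molecules to porphobilinogen, went from 11439 to 6437 counts (-0.55, -0.60 to -0.51, turning to 0.21). *Uros*, which closes the ring, had 961 and 755 counts (-0.07, -0.21 to 0.07, turning to 0.08), an interval that includes no difference. *Urod*, which removes carboxyl groups, went from 6198 to 3789 (-0.43, -0.49 to -0.37, turning to 0.08), and *Ppox*, which forms protoporphyrin, from 1029 to 551 (-0.62, -0.78 to -0.47). The enzymes with a higher ratio were *Cpox*, the step before *Ppox*, from 4866 to 6052 counts (0.59, 0.54 to 0.65), and *Fech*, which inserts iron, from 7815 to 7072 counts in the smaller library (0.13, 0.09 to 0.18). *Fech* turned to -0.85, the lowest of the enzymes with trends removed. Summed over the 9 enzymes the level was 1313 TPM and 820 TPM.

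In each list that follows, counts past 2-fold stand beside 22.5% of all genes above 2 and 8.43% below 0.5, and those with trends removed beside 7.83% and 8.12%. Among 10 partners and transporters of heme synthesis, 1 was above 2 and 1 below 0.5, with a median of -0.11 (0.16 with trends removed), and 0 were past 2-fold with trends removed. The gene below 0.5 was *Tspo*, encoding an outer mitochondrial membrane protein, with 5149 and 2046 counts (-1.05). *Slc25a39*, a mitochondrial carrier, had 38582 and 19503 counts (-0.71, turning to 0.15), whereas *Slc25a37*, the mitochondrial iron importer mitoferrin, had 1391 and 1383 counts (0.27, 0.16 to 0.38, turning to -0.35). Among 13 regulators of *Alas1*, 5 were above 2, a share above that of all genes, and 1 below 0.5, near it, with a median of 0.36. With trends removed, 2 were above 2 and 0 below 0.5. The gene below 0.5 was *Nr1d1*, encoding the clock repressor REV-ERBα, with 7777 and 2733 counts (-1.23), while its paralog *Nr1d2* had 666 and 3389 counts (2.62). *Ppargc1a*, encoding the coactivator PGC-1α that is known to induce *Alas1* in fasting, had 103 and 216 counts (1.33, 1.00 to 1.70), and turned to -0.21 with trends removed. *Bach1*, encoding a heme-binding repressor, had 318 and 1271 counts (2.27), and *Ncor1*, encoding a corepressor, 1432 and 3782 counts (1.68). *Tdo2*, encoding the heme-dependent tryptophan dioxygenase, had 16398 and 49900 counts (1.88). It is counted among the 5 above 2, although it is an enzyme that uses heme. Genes of the list within 2-fold included *Lonp1*, with 10220 and 6449 counts (-0.39, turning to 0.09). *Nr1i3* had 4645 and 4923 counts (0.36) and *Nr1i2* 3840 and 3501 (0.14). Of 10 genes listed as hemoproteins of hepatocytes, which use heme made in these cells, 2 were above 2 (*Tdo2* and *Cyp7a1*, 2.55) and 0 below 0.5, with a median of 0.34. *Por*, in this list, encodes the reductase of cytochrome P450 enzymes and is not itself a hemoprotein. With trends removed, 2 were above 2 (*Cyp7a1*, 1.21, and *Por*, 1.22) and 2 below 0.5 (*Cyp3a11*, -1.34, and *Cycs*, -1.11), while *Tdo2* was at 0.62. *Cyp2e1*, the most abundant cytochrome P450 of the list, had 8642 TPM and 9843 TPM (0.23, 0.22 to 0.23, turning to -0.02).

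Of 12 genes that clear heme and hemoglobin, 9 were lower and 3 higher, beside 7942 lower of all 15857 genes, with a median of -0.33 (-0.21 with GC and length trends removed), and none was below 0.5 beside 8.43% of all genes. *Hpx*, encoding the plasma heme carrier hemopexin, had 620026 and 313681 counts (-0.71), and *Hp*, encoding haptoglobin, which binds free hemoglobin, 340818 and 200321 counts (-0.49, turning to 0.19). *Blvrb*, encoding biliverdin reductase B, which acts after heme oxygenase has opened the heme ring, had 8879 and 4277 counts (-0.78). The 3 above 2, a share near the 22.5% of all genes, were *Cd163*, encoding the receptor for haptoglobin bound to hemoglobin, with 231 and 1254 counts (2.71), *Slc40a1*, encoding the iron exporter ferroportin, with 2756 and 5935 counts (1.38), and *Flvcr1*, encoding a heme exporter, with 49 and 108 counts (1.38, 0.92 to 1.94). With trends removed *Cd163* alone was above 2 (2.25), *Slc40a1* being at 0.20 and *Flvcr1* at 0.65.

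Many other genes of red cells were listed at 0 or at low counts. Of 16 genes of the red cell membrane and skeleton, 7 were listed at 0 in both libraries, among them *Epb42*, *Rhag*, *Rhd*, *Kel* and *Add2*. This number, and those at 0 in the next lists, stand beside 25495 of all 45777 genes at 0 in both libraries. In this list 6 genes passed the count minimum, with a median of 0.14 and 1 above 2 (*Slc43a1*, 1.46), beside 22.5% of all genes. *Epb41*, a skeleton gene that other cells also use, had 4183 and 6719 counts (0.96, turning to -0.65). *Gypc*, encoding glycophorin C, was lower, with 734 and 349 counts (-0.79, -0.98 to -0.61), and was at -0.53 with trends removed. Of these 6 genes 4 were higher and 2 lower. Of 15 other erythroid genes in the table, 11 passed the minimum, with 4 above 2 (*Car1*, *Bnip3l*, *Fbxo30* and *Tfrc*), 1 below 0.5 (*Car2*) and a median of 0.16, beside 22.5% and 8.43% of all genes. With trends removed 0 were above 2 and 1 below 0.5, and *Bnip3l*, just past 2-fold before, turned to -0.10. *Ube2l6*, which other cells also use, was the most counted of this list, with 159 TPM and 117 TPM (-0.40), near the level of *Alas2*, whereas *Hemgn*, *Trim58* and *Tspo2* were listed at 0. *Tfrc*, encoding the transferrin receptor that brings iron into cells, had 193 and 866 counts (2.43), and *Car2*, encoding carbonic anhydrase 2, had 404 and 151 (-1.13). Of 10 erythroid transcription factors, *Gata1* and *Gfi1b* were listed at 0 in both libraries, and 6 passed the minimum with a median of -0.31 (0.23 with trends removed). *Klf1*, which acts at CACCC boxes of the beta globin genes, had 113 and 111 counts (0.25, -0.14 to 0.64), and was at 1.07, past 2-fold, with trends removed. *Nfe2*, the 1 factor below 0.5, had 43 and 7 counts (-2.08, -3.74 to -1.18). Of 9 other globins in the table, 6 were listed at 0 in both libraries, including the embryonic genes *Hba-x*, *Hbb-y* and *Hbb-bh1*. *Cygb*, encoding cytoglobin of stellate cells, had 1232 and 430 counts (-1.24), and *Ngb* had 14 in each library. With trends removed *Cygb* was at -0.47, no longer past 2-fold. *Ngb*, whose low counts gave an interval of -0.90 to 1.46 with the trends left in, was then at 1.00, just past 2-fold. This list then had 1 above 2 and 0 below 0.5.

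Markers of other cells that blood or liver could bring to the sample moved in several directions, and their part in the globin result was not tested. The counts past 2-fold stand beside 22.5% of all genes above 2 and 8.43% below 0.5. Many of these calls rest on low counts. Of 6 platelet markers that passed the minimum, 1 was above 2 (*Gp1ba*, 4 and 12 counts) and 1 below 0.5 (*Treml1*, 13 and 0). Their median was -0.75, with a summed level of 6.06 TPM and 3.20 TPM. Of 8 neutrophil markers, 0 were above 2 and 3 below 0.5 (*S100a9*, 116 and 38 counts, *Retnlg*, 49 and 14, and *Elane*, 15 and 4). The interval of *Elane*, -3.68 to 0.02, includes no difference. The neutrophil median was -0.47, with a summed 15.4 TPM and 8.35 TPM, and the defining marker *Ly6g* was listed at 0. Of 8 B cell markers, 3 were above 2 (*Ms4a1*, 0 and 23 counts, *Iglc2*, 2 and 11, and *Jchain*, 22 and 58). Their median was 0.58, with a summed 40.3 TPM and 57.1 TPM. Of 9 T and NK cell markers, 1 was above 2 (*Cd4*, 47 and 81 counts) and 2 below 0.5 (*Cd8a*, 31 and 4, and *Nkg7*, 51 and 20). Their median was -0.19, with a summed 5.75 TPM and 5.12 TPM. The 9 Kupffer cell markers, of the liver macrophages that take up aged red cells, had a median of -0.14, 3 above 2 (*Vsig4*, *Timd4* and *Marco*) and 1 below 0.5 (*C1qc*), and summed to 832 TPM and 518 TPM. The 8 hepatocyte markers had a median of -0.02 with 2 above 2 (*Apob* and *Cps1*), and the 8 liver endothelial markers a median of -0.17 with none past 2-fold. With GC and length trends removed, several of these calls differed. The counts above 2 and below 0.5 were then 1 and 2 for platelet, 1 and 2 for neutrophil, 3 and 0 for B cell, 1 and 1 for T and NK cell and 1 and 0 for Kupffer cell markers, beside 7.83% and 8.12% of all genes. Hepatocyte markers had 0 past 2-fold and a median of 0.29, with *Apob* at 0.20 and *Cps1* at 0.46, and endothelial markers again had 0.

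**Figure D5:**
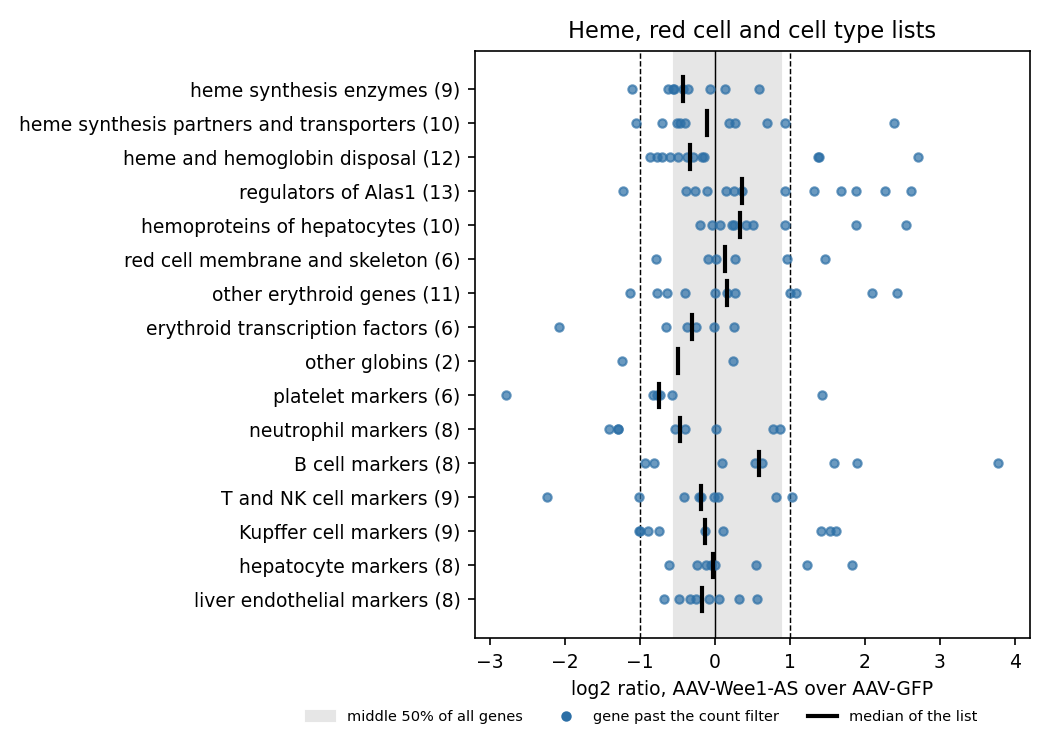
Log2 ratio of AAV-Wee1-AS over AAV-GFP for each gene past the count minimum in 16 lists (points) with the list median (black bar), the number of genes plotted in brackets, the middle 50% of all genes as a grey band and 2-fold as dashed lines. List medians ranged from -0.75 (platelet markers) to 0.58 (B cell markers), and that of the heme synthesis enzymes was -0.43.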

How the data were processed

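Poly-A RNA of liver was sequenced as stranded paired-end libraries with 100-base reads, 1 library per group. Per the submitters' processing notes, the authors used Trimmomatic 0.38, HISAT2 2.1.0, SAMtools 1.9 and StringTie 2.1.3b on mm10. The authors deposited an estimated count, an FPKM and a TPM value for each of 129299 RefSeq transcripts. The deposited estimated counts are whole numbers that, for over 99.5% of transcripts above 0, follow from FPKM and length with rounding up, so they are not independent reads. Settings for multiply mapped reads and for strand are not given in the sources used here.

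Here counts were summed per gene symbol and scaled by TMM in edgeR 4.0.16 (R 4.3.3), the AAV-GFP factor being 1.03 and the AAV-*Wee1-AS* factor 0.975. Log2 ratios used a prior count of 2, and a gene needed 10 counts in either library. The fold limits of 2 and 0.5 are those of the study. GC and length trends were removed by lowess fits (span 0.3) for 14995 genes (94.6%) whose symbol matched a GENCODE vM21 transcript. The script was tested on simulated data. All 7 genes were named, with all heme synthesis enzymes, up to 6 genes of highest count in each of the other lists, and genes behind counts of 5 or fewer. Genes listed at 0 were named after their values were seen, and some list genes are not reported here. The 7 genes and the 16 lists were chosen with earlier results of these data known. Alternatives were other scalings (among them DESeq2 1.42.0 size factors), units, filters, prior counts and single transcripts.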

Additional observations from a re-analysis of the deposited data

How the results depend on the processing

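With 1 library per group no library could be left out, and values show the difference between these libraries only. No paired analysis was possible because each group has 1 library. DESeq2 size factors, TMM factors that leave out the 20 highest genes, no minimum of counts and a prior count of 0.5 moved no ratio of the 7 genes or of the globin sums beyond its counting interval, and the ratio of *Slc4a1*, with 44 and 34 counts, stayed within its interval under every alternative. Scaling by library totals, which moved all genes by -0.07, gave -0.97 for alpha globin, -0.97 for beta globin, -1.17 for *Alas1* and -0.43 for *Alas2*, with 2 of the 7 genes past 2-fold in place of 1 (all genes below 0.5: 1547 in place of 1337). Upper-quartile scaling, which moved all genes by -0.13, gave -1.04, -1.03, -1.23 and -0.49 in the same order, with 4 genes past 2-fold (1759 of all genes below 0.5). FPKM values gave -0.96, -0.96, -1.16 and -0.42, and TPM values -0.94 for alpha globin, -0.94 for beta globin and -1.14 for *Alas1*, both as log2 of the value plus 1. Removing GC and length trends gave -0.065, -0.56, -0.71 and 0.20 for alpha globin, beta globin, *Alas1* and *Alas2*, with 0 genes past 2-fold. Single features gave -0.86 for *Hbb-bt* alone and 0.33 for the most abundant *Alas2* transcript. The cause of these shifts was not tested.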
